A study of Sus scrofa with 23 samples.

Results

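The genes described here are 10 rows of the deposited expression tables for the TGF-beta system of the coronary artery wall: the ligands TGFB1, TGFB2 and TGFB3, the activin subunit INHBA in 2 numbered copies (INHBA_1 and INHBA_2), the receptors TGFBR1 and TGFBR3, the latent binding proteins LTBP1 and LTBP2, and the matrix protein THBS1. They were taken by name, with numbered copies of a name included, and make up 10 of 35228 gene names. Of 10 member names, 9 matched a row. The other one, TGFBR2, was matched by its RefSeq gene ID to the row LOC100038019, and its values are given beside the members' without being counted among them.

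TGF-beta is secreted as an inactive dimer, still wrapped in its own propeptide, and latent binding proteins tether that complex to microfibrils of the matrix. Integrins, proteases and thrombospondin 1 can release it. Free ligand joins type II and type I receptors, which phosphorylate SMAD proteins that move to the nucleus. Activins, dimers of inhibin beta subunits, use a parallel receptor set and the same SMADs. In arteries the pathway is known for matrix synthesis by smooth muscle cells and for restraint of inflammation.

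Coronary arteries of Yorkshire pigs had been cut into 3-mm segments, from which the RNA came. All animals were hypercholesterolemic, and those of the diabetic groups also had diabetes. Segments had been graded for atherosclerosis by histopathology, which gave 6 moderate and 4 severe diabetic segments, and 4 mild, 4 moderate and 5 severe non-diabetic segments, 23 libraries in all. For 1 severe non-diabetic library the characteristics say moderate and diabetic, and its title was followed. The age of the animals is not given in the sources used here. Segments are not assigned to animals in the labels, so the p-values measure spread among segments, which may share an animal.

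Levels, fold changes, standard errors (after ±) and p-values are those of the authors' deposited tables unless said to be computed here. A level is the mean normalized count of a group, which sets groups side by side for 1 gene and does not compare genes, since it is not scaled by transcript length. No value per library was used, so the overlap of single segments between groups cannot be given. Each group mean is set beside the standard error of the fitted model instead. Mild segments were all non-diabetic, and moderate or severe segments set against them are the non-diabetic ones unless diabetes is named. The threshold for a call was an adjusted p under 0.05. Library totals, worked out from how low means rise in steps of 1 read, were about 6.72 M to 15.0 M reads. The lowest total, in moderate non-diabetic segments, is uncertain: the rarest step taken there was shared by 198 genes and the next value by 181. Smooth muscle markers were present in every group. ACTA2, the smooth muscle actin, averaged 37462 and 42032 normalized counts in moderate and severe diabetic segments. It averaged 39101, 36995 and 33190 in mild, moderate and severe non-diabetic segments. ACTA2 alone does not stand for its list. Over the 14 contractile markers tested, ACTA2 among them, median log2 fold changes were -0.19 and -0.46 for moderate and severe over mild segments. For diabetes they were -0.47 and -0.37 in moderate and severe segments. In these comparisons 0 were higher past the threshold, and 0, 3, 3 and 2 were lower, in that order. Of all genes tested, 3.56%, 7.19%, 8.20% and 5.75% were higher and 1.08%, 4.80%, 8.46% and 4.92% lower. In bulk tissue, fewer cells of a type and less RNA per cell cannot be told apart.

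The first ligand, the type I receptor, the activin subunit and thrombospondin 1 were higher in moderate and severe than in mild non-diabetic segments. Thrombospondin 1 and the coreceptor TGFBR3 were higher with diabetes, at both grades in the deposited results. In the authors' deposited tables, 9 rows had an adjusted p for moderate over mild non-diabetic segments; 4 were higher and 0 lower, where 3.56% of all genes tested were higher and 1.08% lower. The same 4 rows were higher and 0 lower in severe than in mild non-diabetic segments, against 7.19% and 4.80% of all genes. These comparisons share the mild libraries. With diabetes, 3 of 10 rows were higher and 1 lower in moderate segments, against 8.20% and 8.46% of all genes, and 2 of 10 were higher and 0 lower in severe segments, against 5.75% and 4.92%. The severe count of 2 was 1 with every gene adjusted together or with the ratio of group means, and 0 with the median gene at 0. In all, 6 of the 10 rows were past the threshold in at least 1 deposited comparison. The share of all genes past it in at least 1 was not computed, so this count cannot be set against a background. The median log2 fold change of the rows with an adjusted p was 0.58 and 0.60 for moderate and severe against mild segments, and 0.38 and 0.35 for diabetes in moderate and severe segments. With TGFBR2 added and INHBA_1 left out, the medians were 0.31 and 0.41 against mild segments and 0.35 and 0.35 for diabetes. Over all genes tested the medians were 0.00, -0.03, -0.03 and 0.01.

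**Figure D1:**
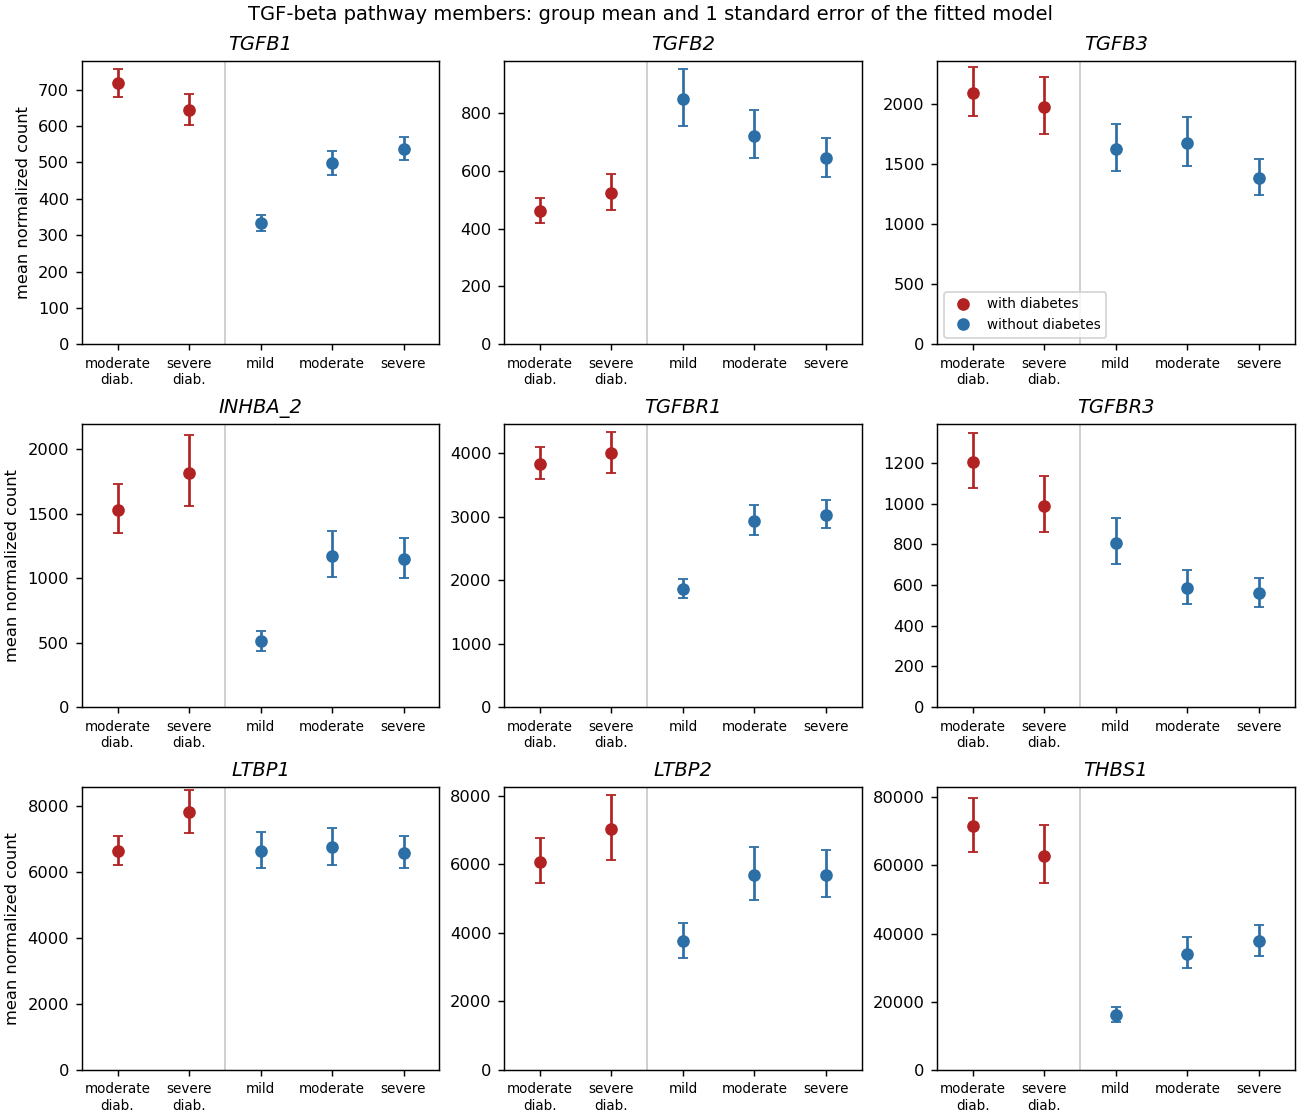
Mean normalized count of 9 members in each of the 5 groups, from 0 on a linear axis in each panel, with red points for diabetic and blue points for non-diabetic segments; bars are 1 standard error of the authors' fitted model. TGFB1, TGFBR1, INHBA_2, LTBP2 and THBS1 have their lowest mean in mild segments, while TGFB2 has its highest mean there.

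TGFB1, the ligand isoform made by many cells of the vessel wall and by leukocytes, lies on chromosome 6, at 49332169 to 49348642 of Sscrofa11.1. It averaged 717 and 644 normalized counts in moderate and severe diabetic segments, and 333, 498 and 537 in mild, moderate and severe non-diabetic segments. Mild segments were the lowest group and moderate diabetic segments the highest. The authors' deposited table puts TGFB1 at 1.50-fold in moderate over mild segments (log2 0.58 ± 0.14, adjusted p = 0.00150) and at 1.61-fold in severe over mild segments (log2 0.69 ± 0.13, adjusted p = 6.16e-06). With diabetes it was 1.44-fold higher in moderate segments (log2 0.52 ± 0.12, adjusted p = 5.24e-04). In severe segments the authors' deposited table gives 1.20-fold, with a 95% interval of 1.01 to 1.42 and an adjusted p of 0.181. The fitted model gave TGFB1 less spread between segments than most genes. Its modelled coefficient of variation was 13.2%, against a median of 20.8% over the 12194 genes that reached 50 normalized counts in all groups.

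TGFB2, the isoform that depends most on the coreceptor TGFBR3 for receptor binding, ran the other way. The gene lies on chromosome 10, at 8306136 to 8435307. It averaged 460 and 524 normalized counts in moderate and severe diabetic segments, and 849, 722 and 644 in mild, moderate and severe non-diabetic segments. Every non-diabetic mean was above both diabetic means. The authors' deposited table puts TGFB2 at 0.636-fold in moderate diabetic over moderate non-diabetic segments (log2 -0.65 ± 0.22, adjusted p = 0.0220), and this was the only fall past the threshold among the 10 rows. In severe segments the effect of diabetes was -0.30 ± 0.23 on the log2 scale (adjusted p = 0.442). Set against mild segments, the authors' deposited table gives -0.23 ± 0.24 for moderate and -0.40 ± 0.22 for severe non-diabetic segments, at adjusted p of 0.737 and 0.271.

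TGFB3, the isoform known from palate formation and wound repair, lies on chromosome 7, at 99133873 to 99162239. It averaged 2090 and 1973 normalized counts in moderate and severe diabetic segments, and 1629, 1676 and 1386 in mild, moderate and severe non-diabetic segments. None of the 6 deposited comparisons put it past the threshold, and 1 had an unadjusted p under 0.05: with diabetes in severe segments the authors' deposited table puts it at 1.42-fold (95% interval 1.04 to 1.95, adjusted p = 0.144). The 3 isoforms had different orders of their group means, though for TGFB2 and TGFB3 no neighbouring groups differed past the threshold. Between moderate diabetic and mild non-diabetic segments, computed here from the deposited fold changes and standard errors, log2 differences were 1.10 ± 0.12 for TGFB1, -0.88 ± 0.22 for TGFB2 and 0.36 ± 0.22 for TGFB3. By the Wald test TGFB1 and TGFB2 passed (adjusted p = 5.97e-17 and 2.44e-04) and TGFB3 did not (adjusted p = 0.189). Diabetes and grade both differ in this pair, in which 41.7% of all genes passed.

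INHBA encodes the beta A subunit, which pairs with itself to make activin A. The tables hold it as 2 numbered copies, between which reads may be split, and neither could be placed on the genome. INHBA_2 carried nearly all the signal, with 1529 and 1815 normalized counts in moderate and severe diabetic segments and 509, 1176 and 1146 in mild, moderate and severe non-diabetic segments. Mild segments stood below every other group. The authors' deposited table puts INHBA_2 at 2.31-fold in moderate over mild segments (log2 1.21 ± 0.31, adjusted p = 0.00537) and at 2.25-fold in severe over mild segments (log2 1.17 ± 0.30, adjusted p = 0.00185). Diabetes gave 1.30-fold in moderate segments (95% interval 0.883 to 1.92, adjusted p = 0.409) and 1.58-fold in severe segments (95% interval 1.06 to 2.37, adjusted p = 0.136), again from the authors' deposited tables. INHBA_1 averaged 3.55 and 2.75 normalized counts in moderate and severe diabetic segments and 3.14, 2.73 and 2.83 in mild, moderate and severe non-diabetic segments. At such low counts its modelled coefficient of variation was 86.7%, and only large differences could be detected.

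TGFBR1, the type I receptor kinase that phosphorylates SMAD2 and SMAD3, lies on chromosome 1, at 240842735 to 240918267. It averaged 3835 and 4000 normalized counts in moderate and severe diabetic segments, and 1868, 2934 and 3031 in mild, moderate and severe non-diabetic segments. The authors' deposited table puts it at 1.57-fold in moderate over mild segments (log2 0.65 ± 0.16, adjusted p = 0.00387) and at 1.62-fold in severe over mild segments (log2 0.70 ± 0.16, adjusted p = 2.50e-04). In the authors' deposited tables the diabetes effect missed the threshold at both grades, at 1.31-fold in moderate segments (95% interval 1.07 to 1.60, adjusted p = 0.0564) and 1.32-fold in severe segments (95% interval 1.07 to 1.63, adjusted p = 0.0773). The moderate value sat at the threshold: in the test computed here over genes that averaged 10 or more, its adjusted p was 0.0481, in a pair where 20.8% of all genes passed. Over the 5 groups TGFBR1 and TGFB1 had closely similar profiles. Centred log2 means of this receptor and ligand differed by a root mean square of 0.07, the smallest among all pairs of the 9 members that reached 50 normalized counts, whose other distances ran up to 1.07 for TGFB2 and THBS1.

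TGFBR3, or betaglycan, is a coreceptor without kinase activity that presents ligand to the signalling receptors, and its shed form can bind ligand away from them. It lies on chromosome 4, at 125109939 to 125310788. TGFBR3 averaged 1206 and 991 normalized counts in moderate and severe diabetic segments, and 807, 585 and 561 in mild, moderate and severe non-diabetic segments. Diabetic means were above every non-diabetic mean. Over mild segments, moderate and severe diabetic ones were at 1.49-fold and 1.23-fold. Neither passed in the Wald tests computed here (adjusted p = 0.0601 and 0.460), where 41.7% and 33.5% of all genes did. The authors' deposited table puts TGFBR3 at 2.06-fold with diabetes in moderate segments (log2 1.04 ± 0.26, adjusted p = 0.00130) and at 1.77-fold in severe segments (log2 0.82 ± 0.27, adjusted p = 0.0305). The second of these calls ended, at an adjusted p of 0.0559, when fold changes were shifted to put the median gene at 0. Without diabetes, moderate and severe segments were at -0.46 ± 0.29 (95% interval -1.02 to 0.10, adjusted p = 0.462) and -0.53 ± 0.27 (95% interval -1.06 to 0.00, adjusted p = 0.214) on the log2 scale over mild segments in the authors' deposited table. TGFBR2, the type II receptor that binds TGF-beta first and lies on chromosome 13, at 16784370 to 16875828, averaged 1344 and 1332 normalized counts in moderate and severe diabetic segments and 1082, 1120 and 1252 in mild, moderate and severe non-diabetic segments. Its largest fold in the authors' deposited tables was 1.20, with diabetes in moderate segments (95% interval 0.986 to 1.47, adjusted p = 0.218).

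LTBP1 binds the latent complex covalently and anchors it to fibrillin microfibrils. The gene is on chromosome 3, at 106300748 to 106724538. Its means were the most even of the members above 10 normalized counts: 6642 and 7816 normalized counts in moderate and severe diabetic segments, and 6654, 6755 and 6596 in mild, moderate and severe non-diabetic segments. The highest mean was 1.18-fold the lowest. In the authors' deposited table its 95% interval for severe over mild segments was 0.798 to 1.23-fold, and for diabetes in severe segments 0.954 to 1.47-fold.

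LTBP2, which shares the family's structure and associates with microfibrils but is not known to carry latent TGF-beta, lies on chromosome 7, at 97744974 to 97852848. It averaged 6072 and 7019 normalized counts in moderate and severe diabetic segments, and 3747, 5683 and 5696 in mild, moderate and severe non-diabetic segments. The authors' deposited table gives 1.52-fold for both moderate and severe over mild segments, with adjusted p of 0.236 and 0.119. Mild segments were the lowest group here too. Against them, computed here, moderate diabetic segments were 1.62-fold higher (log2 0.70 ± 0.25, adjusted p = 0.0165) and severe diabetic segments 1.87-fold higher (log2 0.91 ± 0.28, adjusted p = 0.00484). Diabetes and grade both differ in these pairs, in which 41.7% and 33.5% of all genes passed. For diabetes within a grade the deposited log2 values were 0.10 ± 0.25 in moderate and 0.30 ± 0.26 in severe segments (adjusted p = 0.855 and 0.517).

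THBS1, a matrix glycoprotein of platelets, macrophages and injured smooth muscle that can release TGF-beta from its propeptide, had the widest range of the 10 rows. It lies on chromosome 1, at 131728781 to 131746098. THBS1 averaged 71540 and 62668 normalized counts in moderate and severe diabetic segments, and 16033, 34088 and 37716 in mild, moderate and severe non-diabetic segments. The groups fell in 3 levels, mild lowest, then the other non-diabetic segments, then the diabetic segments. This one gene took 0.630% of all normalized counts in moderate diabetic segments, against 0.137% in mild segments. The authors' deposited table puts it at 2.13-fold in moderate over mild segments (log2 1.09 ± 0.28, adjusted p = 0.00396) and at 2.35-fold in severe over mild segments (log2 1.23 ± 0.26, adjusted p = 8.87e-05). With diabetes it was 2.10-fold higher in moderate segments (log2 1.07 ± 0.25, adjusted p = 5.56e-04) and 1.66-fold higher in severe segments (log2 0.73 ± 0.26, adjusted p = 0.0490). The severe call sat at the threshold: it had an adjusted p of 0.0703 when every gene with a p was adjusted together, 0.0881 with the median gene at 0 and 0.0535 from the ratio of group means.

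Of the genes that reached 50 normalized counts in all groups, the 3 whose centred log2 means over the 5 groups were closest to those of THBS1 were LOC100621773, the guanine nucleotide exchange factor VAV1 of blood cells, and the inactive rhomboid protease RHBDF2. Their root mean square differences from THBS1 were 0.04, 0.07 and 0.08. VAV1 averaged 1464 and 1356 normalized counts in moderate and severe diabetic segments, and 341, 745 and 887 in mild, moderate and severe non-diabetic segments. RHBDF2 averaged 565 and 435 normalized counts in moderate and severe diabetic segments, and 127, 253 and 298 in mild, moderate and severe non-diabetic segments. With 5 group means per gene, this likeness is a description only.

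**Figure D2:**
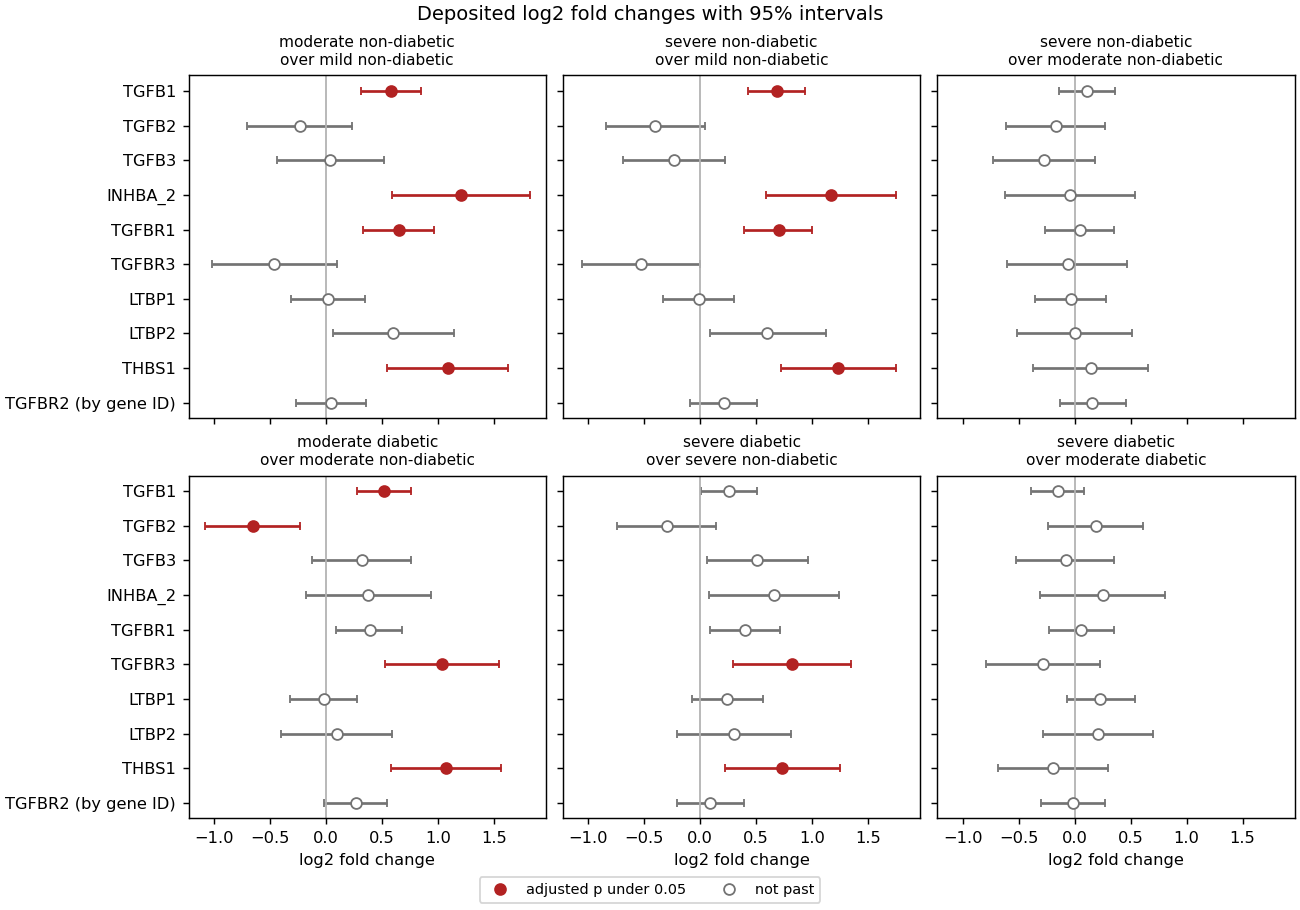
Log2 fold change of each member, and of TGFBR2 matched by gene ID, in the 6 comparisons of the authors' deposited tables, with 95% intervals; filled red points have an adjusted p under 0.05. Red points lie right of 0 for TGFB1, INHBA_2, TGFBR1 and THBS1 against mild segments, and in the diabetes panels TGFB2 in moderate segments is the only red point left of 0.

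Severe and moderate segments were not told apart by any member. Without diabetes, 0 of 9 rows with an adjusted p passed in the DESeq2 results, 0 of 10 had an unadjusted p under 0.05, and 0.0203% of all genes tested were past the threshold. With diabetes the counts were also 0 of 10 past the threshold and 0 of 10 with an unadjusted p under 0.05, against 0.00332% of all genes. Intervals stayed wide enough to hold moderate changes. For THBS1 the authors' deposited tables give 0.622 to 1.23-fold for severe over moderate diabetic segments and 0.775 to 1.58-fold for severe over moderate non-diabetic segments.

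The effect of diabetes on each member was also compared between grades, by a Wald test computed here of the severe minus the moderate effect. Of 9 members tested, 0 passed and 0 had an unadjusted p under 0.05, while 0.0114% of 17493 genes were past the threshold. The differences ran from -0.34 ± 0.36 for THBS1 to 0.35 ± 0.31 for TGFB2 on the log2 scale, each with an adjusted p of 0.999. Their 95% intervals of -1.05 to 0.38 and -0.26 to 0.97 leave room for sizeable differences. So TGFB1 and TGFB2, past the threshold for diabetes in moderate segments and not in severe ones, were not shown to respond differently by grade.

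Pairs of groups outside the deposited comparisons were tested here from the same fit, over genes that averaged 10 or more. In moderate diabetic against mild non-diabetic segments 6 of 9 members were past the threshold, against 41.7% of all genes. Severe diabetic against mild non-diabetic segments also gave 6 of 9, against 33.5%. Diabetes and grade both differ in these pairs and cannot be told apart there. THBS1 was 4.46-fold higher in moderate diabetic than in mild segments (log2 2.16 ± 0.25, adjusted p = 6.73e-16), and INHBA_2 was 3.56-fold higher in severe diabetic than in mild segments (log2 1.83 ± 0.31, adjusted p = 1.04e-07). In severe diabetic against moderate non-diabetic segments 3 of 9 members passed, against 13.0% of all genes: THBS1 (adjusted p = 0.0180), and TGFB1 and TGFBR1 at the threshold (adjusted p = 0.0475 and 0.0493). With no filter on low means 1 passed. In moderate diabetic against severe non-diabetic segments 4 of 9 passed, against 19.9%: TGFB1, TGFB3, TGFBR3 and THBS1, all higher in the diabetic segments. Here TGFB3 was 1.51-fold higher (log2 0.59 ± 0.21, adjusted p = 0.0281), the 1 of 10 pairs in which it was past the threshold.

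Ranked by level over the 5 groups, few neighbouring groups differed. For TGFB1, TGFBR1, INHBA_2 and THBS1 the step up from mild segments to the next group passed in the tests computed here, with adjusted p of 0.00141, 0.00366, 0.00161 and 0.00374. That next group was severe non-diabetic segments for INHBA_2, a pair in which 13.9% of all genes passed, and moderate non-diabetic segments for the other members, where 4.92% passed. THBS1 alone had a second such step, between severe diabetic and severe non-diabetic segments (adjusted p = 0.0433), a pair in which 12.8% of all genes passed. For TGFB2, TGFB3, TGFBR3, LTBP1 and LTBP2 no neighbouring groups differed past the threshold.

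Summed marker RNA of several cell types also differed between the groups. Not every single marker followed its sum. From mild to severe non-diabetic segments the macrophage marker MARCO went from 30.2 to 18.1 normalized counts, and the contractile marker MYOCD from 40.9 to 74.3. The heart muscle marker MYL7 averaged 88.7, 830 and 49.7 normalized counts in mild, moderate and severe non-diabetic segments. Macrophage markers, 15 of 17 matched and none at 0, summed to 0.252% and 0.272% of normalized counts in moderate and severe diabetic segments, and to 0.122%, 0.178% and 0.246% in mild, moderate and severe non-diabetic segments. Contractile smooth muscle markers, 14 of 15 matched and none at 0, summed to 1.06% and 1.08% in diabetic segments of those grades, and to 1.48%, 1.28% and 1.12% in mild, moderate and severe non-diabetic segments. Fibroblast markers, 13 of 13 matched and none at 0, summed to 1.20% and 1.27% in moderate and severe diabetic segments, and to 2.02%, 1.38% and 1.39% in mild, moderate and severe non-diabetic segments. Heart muscle markers, 16 of 18 matched, summed to 0.0336% and 0.0462% in moderate and severe diabetic segments, with NPPA at 0 in the moderate ones, and to 1.38%, 0.409% and 0.358% in mild, moderate and severe non-diabetic segments. Neutrophil markers, 9 of 11 matched, summed to 0.00855% and 0.00716% in moderate and severe diabetic segments, and to 0.00141%, 0.00387% and 0.00375% in mild, moderate and severe non-diabetic segments. ELANE was at 0 in every group but the moderate non-diabetic one, and MPO at 0 in mild segments. Adipocyte markers, 8 of 10 matched, summed to 0.0167% and 0.0223% in moderate and severe diabetic segments, and to 0.0656%, 0.0366% and 0.0378% in mild, moderate and severe non-diabetic segments, with RETN at 0 in the non-diabetic groups. The part of these shifts in the members' values was not tested.

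Other genes of the pathway were followed in 7 lists, each gene matched to 1 row, with 4 genes (BGN, PMEPA1, SKIL and SMAD7) on more than 1 list. Counts and values below are from the authors' deposited tables, and signed values with an error are log2 fold changes. Counts of unadjusted p under 0.05 have no share of all genes beside them and are a description only. Genes that process or release the latent complex had the most calls of the 7 lists with diabetes. Of 18 such genes, 7 were higher and 1 lower with diabetes in moderate segments (median log2 0.32), against 8.20% and 8.46% of all genes. In severe segments 6 were higher and 1 lower with diabetes (median log2 0.45), against 5.75% and 4.92%. Without diabetes, 3 were higher and 1 lower in moderate than in mild segments (median 0.13), against 3.56% and 1.08%. For severe over mild segments the counts were 4 and 2 (median 0.07), against 7.19% and 4.80%. FURIN, the convertase that cuts the propeptide from the ligand, averaged 1424 and 1158 normalized counts in moderate and severe diabetic segments, and 521, 753 and 747 in mild, moderate and severe non-diabetic segments. The authors' deposited table puts FURIN at 0.92 ± 0.11 with diabetes in moderate segments (adjusted p = 1.06e-12), 0.63 ± 0.12 in severe segments (adjusted p = 1.89e-05) and 0.53 ± 0.13 in moderate over mild segments (adjusted p = 0.00208). The gelatinase MMP2 was higher with diabetes at both grades, by 0.77 ± 0.23 in moderate and 0.84 ± 0.23 in severe segments (adjusted p = 0.00734 and 0.00820). The integrin subunit ITGB3 stood at 0.90 ± 0.17 with diabetes in severe segments (adjusted p = 1.29e-05). The convertase PCSK6 fell to 39.0 normalized counts in both moderate and severe non-diabetic segments, against 90.8 in mild segments (log2 -1.23 ± 0.32 and -1.24 ± 0.30, adjusted p = 0.00584 and 9.94e-04). ITGB6_1, a subunit of an epithelial integrin that releases TGF-beta, averaged 0.172 normalized counts in moderate diabetic segments, under the mean of 0.474 that 3 reads over that group would give, against 26.9 in moderate non-diabetic segments (adjusted p = 8.83e-04).

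Latent complex and microfibril genes split by direction. Of 11, 1 was higher and 4 were lower in severe than in mild segments (median -0.01), 1 and 2 with diabetes in moderate segments (median -0.20), and 0 and 1 with diabetes in severe segments (median 0.01). Over all genes, 7.19% were higher and 4.80% lower in the first of these comparisons, 8.20% and 8.46% in the second, and 5.75% and 4.92% in the third. In moderate against mild segments 0 of 11 passed and 5 had an unadjusted p under 0.05 (median -0.05). There, 3.56% of all genes were higher and 1.08% lower. LTBP4, which binds the latent complex of TGFB1 and supports elastic fibres, averaged 2329 and 2367 normalized counts in moderate and severe diabetic segments, and 6218, 4168 and 4150 in mild, moderate and severe non-diabetic segments. It fell by 0.84 on the log2 scale with diabetes in moderate segments (± 0.19, adjusted p = 2.22e-04), by 0.81 in severe segments (± 0.19, adjusted p = 0.00144) and by 0.58 in severe against mild segments (± 0.19, adjusted p = 0.0273) in the authors' deposited tables. LTBP4 was thus lower in comparisons where LTBP1 and LTBP2 were not past the threshold. NRROS, which holds latent TGFB1 on the surface of macrophages and microglia, was higher in severe than in mild segments (0.60 ± 0.14, adjusted p = 4.29e-04) and with diabetes in moderate segments (0.65 ± 0.13, adjusted p = 3.47e-05). FBN2, a microfibril protein, was lower in the same comparisons (-0.67 ± 0.20 and -0.69 ± 0.20, adjusted p = 0.0122 and 0.00534). The small proteoglycan DCN, which binds TGF-beta, stood at 7059 normalized counts in severe against 22074 in mild segments (-1.64 ± 0.50, adjusted p = 0.0125).

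**Figure D3:**
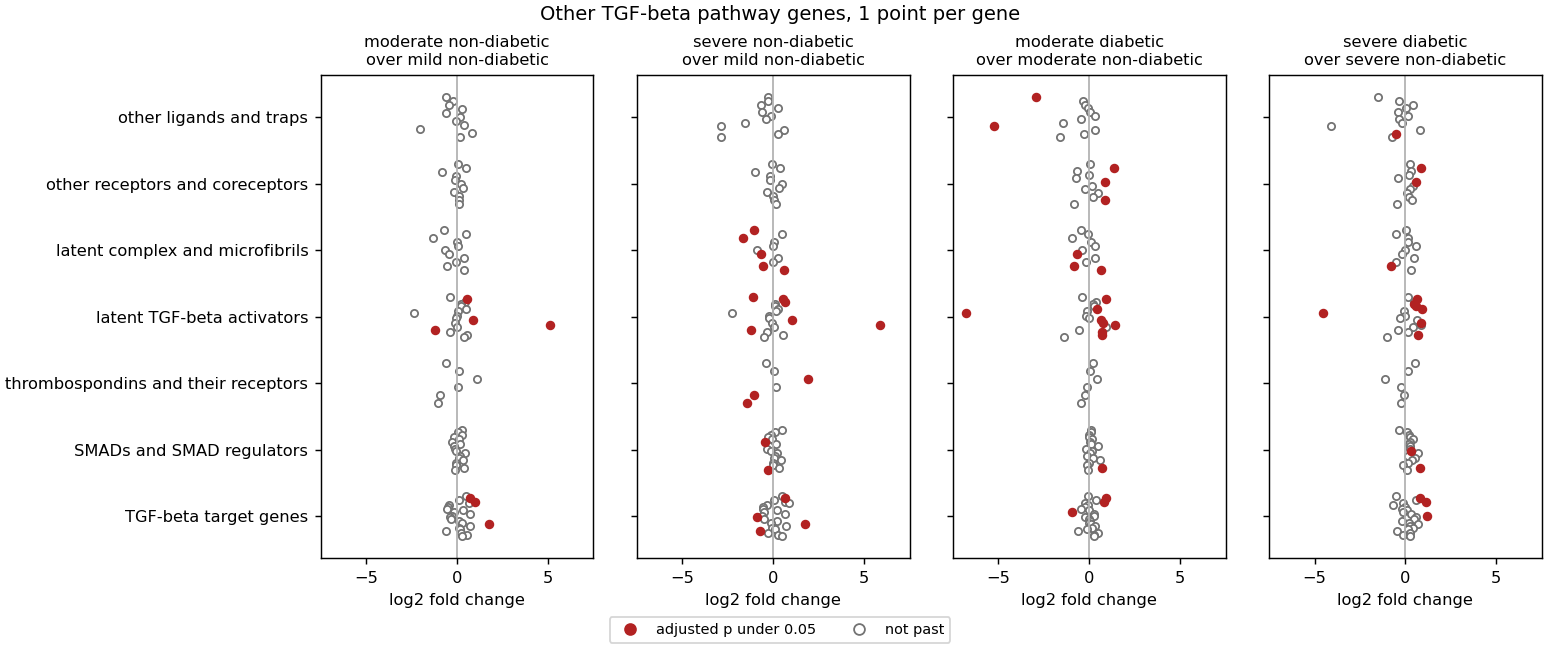
Log2 fold changes of the other pathway genes in 4 comparisons of the authors' deposited tables, 1 point per gene with an adjusted p and 1 row of points per list; filled red points have an adjusted p under 0.05. In the diabetes panels 7 and 6 of the genes that process or release latent TGF-beta lie right of 0 as red points. Of all genes tested, 8.20% and 5.75% were higher in those comparisons.

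Among 12 other receptors and coreceptors, 3 were higher and 0 lower with diabetes in moderate segments (median 0.10), and 2 and 0 in severe segments (median 0.26), where 8.20% and 5.75% of all genes were higher. Against mild segments 0 of 11 passed in moderate and 0 of 11 in severe non-diabetic segments, and 0 and 1 had an unadjusted p under 0.05. Of all genes, 3.56% and 7.19% were higher and 1.08% and 4.80% lower in those comparisons. ACVR1B, the type I receptor of activin, averaged 382 and 247 normalized counts in moderate and severe diabetic segments, and 104, 146 and 134 in mild, moderate and severe non-diabetic segments. The authors' deposited table puts ACVR1B at 1.38 ± 0.24 with diabetes in moderate segments (adjusted p = 1.44e-06) and 0.88 ± 0.25 in severe segments (adjusted p = 0.0103). The endothelial type I receptor ACVRL1 was higher by 0.89 ± 0.18 and 0.57 ± 0.19 with diabetes in moderate and severe segments (adjusted p = 4.55e-05 and 0.0299). ENG, the endothelial coreceptor endoglin, was higher in the moderate ones (0.84 ± 0.23, adjusted p = 0.00334). Endothelial markers, 12 of 14 matched and none at 0, summed to 0.0578% of normalized counts in moderate diabetic and 0.0553% in moderate non-diabetic segments, and to 0.0548% in severe diabetic and 0.0625% in severe non-diabetic segments.

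Of 12 other ligands and traps tested, 0 were higher and 2 lower with diabetes in moderate segments (median -0.30), and 0 and 1 in severe segments (median -0.34), where 8.46% and 4.92% of all genes were lower. BMP2, a bone morphogenetic protein, averaged 1.44 normalized counts in moderate diabetic segments and was lower there than in moderate non-diabetic ones (log2 -2.91 ± 0.68, adjusted p = 5.06e-04). Against mild segments 0 passed in moderate and 0 in severe non-diabetic segments, while 2 of 14 had an unadjusted p under 0.05 in each. There, 3.56% and 7.19% of all genes were higher and 1.08% and 4.80% lower. Beside THBS1, 6 thrombospondin family genes and receptors were measured. None passed with diabetes in moderate or severe segments, where 0 and 1 had an unadjusted p under 0.05 (medians -0.05 and -0.15). Of all genes, 8.20% and 5.75% were higher and 8.46% and 4.92% lower with diabetes in those grades. In severe against mild segments 1 was higher and 2 were lower (median -0.18), where 7.19% of all genes were higher and 4.80% lower. THBS3 (-1.07 ± 0.33, adjusted p = 0.0137) and THBS4 (-1.42 ± 0.45, adjusted p = 0.0215) were lower. COMP, a cartilage matrix protein, was higher (1.93 ± 0.68, adjusted p = 0.0421, and 0.0620 with every gene adjusted together). In moderate against mild segments 0 of 6 passed and 2 had an unadjusted p under 0.05 (median -0.28), where 3.56% of all genes were higher and 1.08% lower.

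SMADs and their regulators, 18 genes, gave 1 higher and 0 lower with diabetes in moderate segments (median 0.06) and 2 and 0 in severe segments (median 0.27), where 8.20% and 5.75% of all genes were higher. TGIF1, a corepressor of SMAD complexes, averaged 657 and 678 normalized counts in moderate and severe diabetic segments, and 312, 407 and 392 in mild, moderate and severe non-diabetic segments. The authors' deposited table puts TGIF1 at 0.70 ± 0.20 with diabetes in moderate segments (adjusted p = 0.00566) and 0.79 ± 0.21 in severe segments (adjusted p = 0.00432). In severe against mild segments 0 were higher and 2 lower (median -0.03), where 7.19% of all genes were higher and 4.80% lower. With every gene adjusted together 1 was lower. The smallest adjusted p was that of ZFYVE9, which brings SMAD2 and SMAD3 to the receptor (-0.28 ± 0.08, adjusted p = 0.00615). In moderate against mild segments 0 of 18 passed and 0 had an unadjusted p under 0.05, where 3.56% of all genes were higher and 1.08% lower.

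Of 24 target genes of the pathway tested, 3 were higher and 0 lower in moderate than in mild segments (median 0.16), 2 and 2 in severe than in mild segments (median 0.07), 2 and 1 with diabetes in moderate segments (median 0.02), and 3 and 0 with diabetes in severe segments (median 0.22). Over all genes, 3.56% were higher and 1.08% lower, 7.19% and 4.80%, 8.20% and 8.46%, and 5.75% and 4.92% in those comparisons. POSTN, a matrix protein of injured vessels, averaged 27329 normalized counts in moderate and 27333 in severe segments, against 8088 in mild segments (1.76 ± 0.33 and 1.76 ± 0.31, adjusted p = 1.00e-05 and 9.48e-07). CDKN1A, a brake on the cell cycle, was higher with diabetes by 0.79 ± 0.23 in moderate and 1.14 ± 0.24 in severe segments (adjusted p = 0.00690 and 1.70e-04). The transcription factor BHLHE40 was higher with diabetes by 0.91 ± 0.21 and 0.81 ± 0.22 in those grades (adjusted p = 4.45e-04 and 0.00599). ID1, a target of BMP receptors as well, was higher with diabetes in severe segments (1.19 ± 0.35, adjusted p = 0.0139). CCN2 and SMAD7, named after their values were seen because they are common readouts of the pathway, were past the threshold in none of the 4 comparisons. In moderate over mild segments the authors' deposited table puts CCN2, a matricellular growth factor, at 0.09 ± 0.46 (adjusted p = 0.964) and SMAD7, the inhibitory SMAD, at 0.14 ± 0.22 (adjusted p = 0.852). For diabetes in moderate segments it gives 0.36 ± 0.42 for CCN2 and -0.14 ± 0.20 for SMAD7, with adjusted p of 0.635 and 0.705.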

How the data were processed

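Poly-A selected RNA of coronary artery segments was sequenced, per the labels' protocols. Per the submitters' processing notes, the authors worked on build Sscrofa11.1 and used DESeq2. Which aligner, counter, annotation and versions they used is not given in the sources used here. Each of 6 deposited tables holds 2 group means of normalized counts, a signal called normMean per the file headers. The authors also deposited a log2 fold change with its standard error, a p-value and an adjusted p-value. A test score in 3 deposited tables has its sign turned and was not used. In 3 tables, genes with no fold change hold a spreadsheet error and were read as missing.

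Of 35252 lines, 24 held dates in place of names and were left out. The variance of each group mean was solved from the 6 standard errors. Two-sided Wald tests of all 10 pairs of groups and of the difference of the diabetes effects followed, over genes averaging 10 or more over the 5 groups, with Benjamini-Hochberg adjustment (Python 3.11.15, numpy 2.4.6, scipy 1.17.1). The arithmetic was tested on simulated data. A p recomputed from the deposited values differed by at most 4.39e-15. The coefficient of variation is the solved standard error times the root of the number of segments, counting error included. A 95% interval is the fold change with 1.96 standard errors to either side. Counts behind single segments were not used, so intervals rest on the model.

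The members and lists were chosen with earlier results of these data known. List genes (6 matched by gene ID, 6 by numbered copy, 189 by name and 17 not matched) are named as the up to 4 of smallest adjusted p past the threshold in a comparison, and not all are printed. Coordinates are from the RefSeq table of the same build.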

Additional observations from a re-analysis of the deposited data

How the results depend on the processing

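No paired analysis was possible because no value per library was used, although groups share replicate numbers, and leaving out single libraries was not run for the same reason. No member's call changed direction under any alternative tried. For diabetes in severe segments, where 2 members were higher, 1 remained when every gene with a p was adjusted together and 1 with the log2 ratio of group means, and 0 were higher at a threshold of 0.01 or with the median gene at 0. For diabetes in moderate segments, the 1 lower member, TGFB2, was lost at a threshold of 0.01, which left 0. With no filter on low means, the test computed here found 1 member for severe diabetic over severe non-diabetic segments, and 1 in place of 3 for severe diabetic over moderate non-diabetic segments. The counts for moderate and severe against mild segments moved by at most 1.5 times under each alternative. The cause of these changes was not tested beyond the number of genes adjusted over. At a threshold of 0.1, TGFBR1 was higher with diabetes at both grades. With every gene adjusted together, 7 counts in the pathway lists, each of 1 or 2 genes, became smaller by more than 1.5 times. Low counts limit what can be said of INHBA_1.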
